A study of Mus musculus with 53 samples.

Results

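The kinesin, dynein and dynactin genes encode the motors that carry cargo along microtubules, with their light chains and the adaptor complex of dynein. They were taken from the count table by symbol: every gene whose symbol was Kif or Klc followed by a digit, or began with Dync, Dynl or Dctn. This gave 45 of the 12372 genes, here called the motor genes: 24 Kif, 3 Klc, 7 Dync, 5 Dynl and 6 Dctn symbols. No measured value entered the choice. The symbol rule also took Kif1bp, a kinesin binding protein that is no motor itself.

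Kinesins mostly walk toward the plus ends of microtubules, which point away from the cell body in axons, and so carry vesicles, mitochondria and channel proteins outward. Cytoplasmic dynein 1, together with dynactin, carries cargo back toward the cell body, whereas kinesin-2 and cytoplasmic dynein 2 move material up and down cilia. Long axons depend on these motors, and mutations in several of them, among them KIF5A, KIF1A, DYNC1H1 and DCTN1, cause human neurological disease.

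RNA sequencing was done on brainstem, cerebellum, cortex and striatum of wild-type C57BL/6 mice and of hemizygous MJD84.2 mice, a model of spinocerebellar ataxia type 3 (SCA3), at 17.5 months of age (74 to 77 weeks). The SCA3 mice carry human ATXN3 as a whole gene, its CAG repeat expanded, under its own human promoter, in all tissues, next to their own mouse Atxn3. Both genotypes came from crosses of hemizygous with wild-type mice, and no mouse received a treatment. There were 8 wild-type and 6 SCA3 brainstem libraries, 7 and 6 from cerebellum, 7 and 6 from cortex, and 8 and 5 from striatum, 53 in all from 14 mice, with about 31680900 to 76703800 counts each. The human transgene itself was not analysed here.

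The libraries were compared with marker lists before the motor genes were examined. A list score is the mean log2 CPM (read counts scaled to a common library total) of its genes in a library. The granule and Purkinje cell score was 8.90 to 9.43 in the cerebellar libraries and at most 5.96 elsewhere. Striatal projection neuron scores ran from 7.73 to 9.75 in striatum, but also from 5.93 to 8.56 in cortex, so the labelled cortex held markers of striatum in varying amounts. The striatal libraries of wild-type mice 7267058 and 7267059 stood apart, with thalamic marker scores of 7.16 and 7.49 against 3.49 to 5.50 in the other 11 striatal libraries. In brainstem 3 libraries stood apart, those of wild-type mouse 7267055 and SCA3 mice 9083514 and 9083515, with thalamic scores of 6.04 to 6.19 (4.82 to 5.68 in the other 11) and cortical glutamatergic neuron scores of 3.86 to 3.92 (4.93 to 5.53). The brainstem libraries of SCA3 mouse 7267054 and wild-type mouse 9083373 had granule and Purkinje cell scores of 5.96 and 5.83, against at most 4.87 in the other 12. In SCA3 mice, the 15 mature oligodendrocyte markers all had fold changes below 0 in brainstem and in striatum (5 and 8 of them passed the test), and the RNA integrity number (RIN) in brainstem was 7.78 ± 0.264 (SD, n = 6) against 7.24 ± 0.424 (SD, n = 8) in wild-type. In such tissue samples, fewer cells of a type and less RNA per cell cannot be told apart.

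SCA3 and wild-type mice differed in few motor genes. At an FDR (false discovery rate) below 0.05 by edgeR's likelihood ratio test, adjusted over all 12372 genes, Kif13b fell and Kif19a rose in brainstem, Klc4 fell in striatum, and no motor gene passed in cerebellum or cortex. Neither brainstem gene passed without the 3 brainstem libraries that stood apart in thalamic markers, when 0 of 45 motor genes and 0.736% of all genes passed there. Both passed with the thalamic score in a fit on brainstem alone, when 5 of 45 motor genes (11.1%) and 6.22% of all genes passed. With all libraries, the 2 of 45 in brainstem (4.44%) stood beside 1.92% of all genes, and the 1 of 45 in striatum (2.22%) stood beside 7.54% of all genes. In cerebellum 0.0647% and in cortex 0.154% of all genes passed. In the test of all 4 regions combined the same 3 motor genes passed (6.67%, against 4.73% of all genes). That test takes several regions of a mouse as separate samples. With mice as random blocks in limma-voom Kif19a no longer passed it (FDR = 0.16), nor did it in limma-voom without blocks (FDR = 0.077) or in edgeR without the 3 brainstem libraries (FDR = 0.065). Klc4 no longer passed it with the libraries of RIN 7 or more (FDR = 0.11), without the 2 striatal libraries named above (FDR = 0.062), or without mouse 7267054, 7267059, 9083372, 9083373, 9083514 or 9083515 (FDR = 0.054 to 0.18).

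The median log2 fold change (SCA3 over wild-type) of the 45 genes was -0.01 in brainstem, -0.01 in cerebellum, 0.00 in cortex and -0.03 in striatum, and 0.00 over all genes in each region. In all 4 regions together, 31 of the 45 genes (68.9%) stayed within 0.2 of 0 on the log2 scale, as did 62.3% of all genes. The median standard error (SE) of a motor gene's fold change was between 0.087 and 0.091 in the 4 regions. Before adjustment, p was below 0.05 for 6 motor genes in brainstem (13.3%, as for all genes, 13.3%), 0 in cerebellum (all genes 1.66%), 1 in cortex (all genes 4.07%) and 10 in striatum (22.2%, all genes 23.2%). The shares of motor genes were thus near those of all genes in brainstem and striatum. At an FDR below 0.05, the counts of 0 motor genes in cerebellum and cortex were also 0 with edgeR's quasi-likelihood test, DESeq2 and limma-voom over all libraries.

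**Figure D1:**
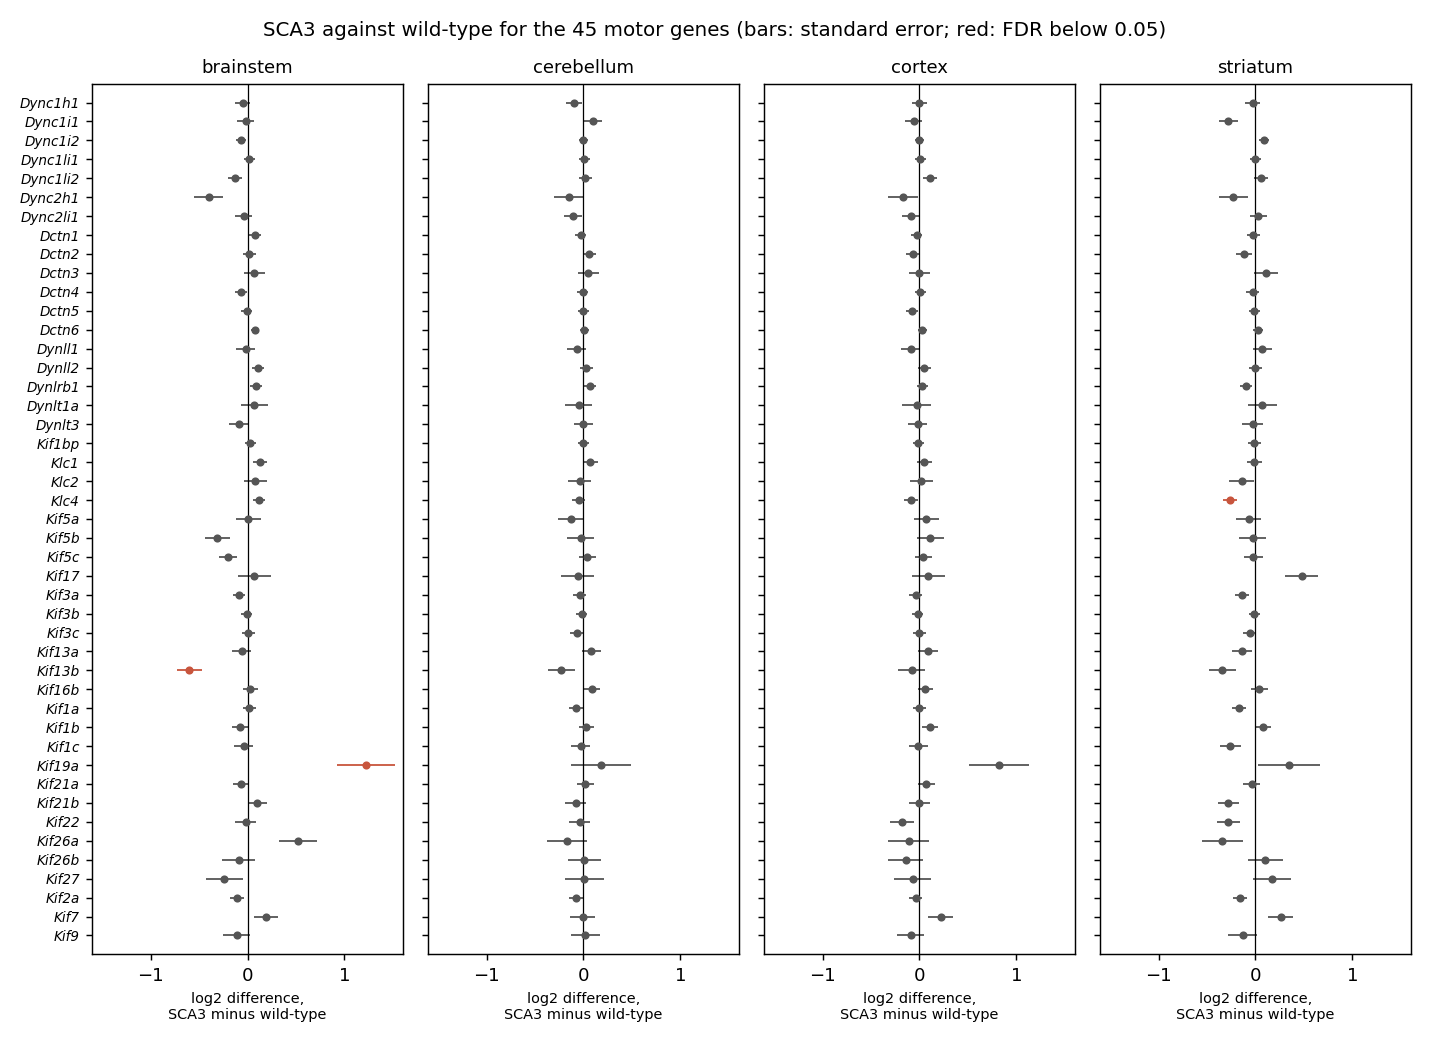
Log2 fold change, SCA3 minus wild-type, for each of the 45 motor genes (rows) in the 4 regions (panels); points are edgeR estimates, horizontal bars are ± 1 SE, and red points passed FDR below 0.05. Kif13b and Kif19a in brainstem and Klc4 in striatum are red, and most other points lie within 0.2 of 0.

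Kif13b, on chr14:64647265-64809617 (GRCm38, plus strand), encodes a kinesin-3 that moves vesicles and membrane proteins. In brainstem its level was 78.4, 111 and 123 CPM (lowest, median, highest; n = 8) in wild-type and 58.6, 74.4 and 75.4 CPM (n = 6) in SCA3 mice. Every SCA3 library was below every wild-type library. The log2 fold change was -0.60 (SE 0.13, FDR = 0.0014). It was -0.53 (FDR = 0.073) without the 3 brainstem libraries high in thalamic markers, and -0.67 (FDR = 0.00087) without the 2 high in cerebellar markers. Kif13b and Kif19a were the 2 motor genes without overlap between genotypes in brainstem, as were 1.38% of all genes.

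In striatum Kif13b was at 55.9, 77.5 and 126 CPM in wild-type mice and at 60.8, 63.2 and 65.6 CPM in SCA3 mice, a log2 fold change of -0.34 (SE 0.14) that did not pass (FDR = 0.11). Without the 2 striatal libraries high in thalamic markers it was -0.15 (FDR = 0.64). The wild-type libraries there spread on both sides of the SCA3 libraries. In cerebellum the medians were 73.5 and 62.9 CPM (log2 fold change -0.23, FDR = 1.0), and in cortex 54.3 and 50 CPM (-0.08). The fold changes were below 0 in all 4 regions, and their difference between regions did not pass (FDR = 0.55).

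Kif13b values moved with several marker lists at once. In wild-type brainstem, the lowest Kif13b values (78.4 CPM in mouse 9083373 and 87.8 CPM in mouse 7267055) came with the lowest oligodendrocyte scores (7.82 and 7.98, against 8.43 to 8.71 in the other 6 libraries). In SCA3 brainstem the score was 7.69 to 8.28. The astrocyte scores of these wild-type mice, 8.01 and 8.30, were also the lowest of the group (8.40 to 8.81 in the other 6), as were their microglia scores, 4.51 and 4.88 (4.95 to 5.46). Their general neuron scores, 9.32 and 9.24, were likewise the lowest (9.44 to 9.72), whereas their thalamic scores, 5.68 and 6.19, were the highest (4.82 to 5.25). In SCA3 brainstem the astrocyte score was 7.94 to 8.32, and 4 of 12 astrocyte markers fell, among them Slc1a2 (log2 fold change -0.83) and Glul (-0.63). In striatum the highest Kif13b value, 126 CPM in wild-type mouse 7267059, came with the highest oligodendrocyte (8.72), astrocyte (8.33), microglia (5.59), general neuron (9.23) and thalamic (7.49) scores. When the oligodendrocyte score entered a fit on brainstem alone, the log2 fold change was -0.31 (FDR = 0.0083). With RIN in place of that score it was -0.45 (FDR = 0.045). No fit held the astrocyte, microglia or general neuron score, so their part in the result was not tested.

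Kif19a, on chr11:114765388-114790739 (plus strand), encodes a kinesin-8 that shortens microtubules at the tips of motile cilia and so limits their length. It was among the motor genes with the lowest levels. In brainstem it was at 2.89, 4.38 and 4.95 CPM in wild-type and at 6.06, 9.45 and 13.8 CPM in SCA3 mice. Again no library of the SCA3 mice fell within the wild-type range. The log2 fold change was 1.22 (SE 0.30, FDR = 0.0058).

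The brainstem call for Kif19a was lost in 3 fits. In limma-voom with mice as random blocks, its log2 fold change was 1.17 (FDR = 0.054), and without SCA3 mouse 9083514, the highest library, it was 1.09 (FDR = 0.06). Without the 3 brainstem libraries high in thalamic markers it was 0.97 (FDR = 0.29), and without the 2 high in cerebellar markers it was 1.26 (FDR = 0.016). Scores of 4 ependymal and multiciliated cell markers covered 1.99 to 3.15 in wild-type and 1.99 to 3.12 in SCA3 brainstem, and those of 3 choroid plexus markers 1.95 to 3.14 and 1.47 to 3.00. The ependymal and multiciliated ranges overlapped almost fully, and the choroid plexus range reached lower in SCA3 mice. The oligodendrocyte precursor score was 5.13 to 5.76 in wild-type and 5.60 to 5.98 in SCA3 brainstem, and it was highest in mouse 9083514, which also had the highest Kif19a value. Of the 8 precursor markers, Olig1 (log2 fold change 0.56, FDR = 0.0066) and Olig2 (0.49, FDR = 0.04) rose in brainstem, and the part of that list in the Kif19a result was not tested. The mature oligodendrocyte score, which was lower in SCA3 mice, left a log2 fold change of 1.00 (FDR = 0.00019) when fitted on brainstem alone.

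In cortex Kif19a was at 2.83, 3.38 and 5.26 CPM in wild-type and at 3.73, 7.08 and 8.03 CPM in SCA3 mice. Here 4 of 6 SCA3 libraries lay above the highest wild-type library. The log2 fold change of 0.82 (SE 0.31) did not pass (FDR = 0.73), but it passed when cortex was fitted alone (FDR = 0.043). With RIN in that fit it did not pass, when 0 motor genes and 0.137% of all genes did. In striatum the medians were 6.20 and 7.71 CPM (log2 fold change 0.35, FDR = 0.52).

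Cerebellar Kif19a took on either low or high values in both genotypes. In wild-type mice 4 libraries lay between 5.02 and 6.28 CPM and 3 at 14.9, 18.8 and 27.3 CPM, and in SCA3 mice 3 lay between 5.60 and 6.59 CPM and 3 at 17.6, 19.6 and 24.8 CPM. No library fell between 6.59 and 14.9 CPM. The choroid plexus score was 3.65 to 7.56 in the 6 libraries with high Kif19a and 2.04 to 7.57 in the other 7. The log2 fold change between genotypes was 0.18 (SE 0.31, FDR = 1.0).

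Klc4, on chr17:46630624-46646022 (minus strand), encodes a kinesin light chain, the part of kinesin-1 that binds cargo. In striatum it was at 28.2, 32.6 and 39.2 CPM in wild-type and at 23.6, 27.7 and 29.3 CPM in SCA3 mice. The ranges overlapped between 28.2 and 29.3 CPM. The log2 fold change was -0.26 (SE 0.07, FDR = 0.008). No motor gene was without overlap in striatum, against 0.655% of all genes, and none in cerebellum (0.234%) or cortex (0.251%).

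The striatal call for Klc4 held in 23 of 31 alternatives, among them 13 of the 14 that left out 1 mouse. The highest value, 39.2 CPM, was that of wild-type mouse 7267059, which was high in thalamic markers. Without that library and the striatal library of mouse 7267058, the log2 fold change was -0.22 (FDR = 0.061), and without SCA3 mouse 9083515, the lowest library, it was -0.21 (FDR = 0.085). It was also lost with the libraries of RIN 7 or more (-0.27, FDR = 0.06) and with striatum fitted alone (-0.26, FDR = 0.21). In that fit it was -0.17 (FDR = 0.65) with the thalamic score and -0.14 (FDR = 1.0) with the projection neuron score.

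The fold changes of Klc4 lay on both sides of 0. In brainstem its medians were 41.4 CPM in wild-type and 44.2 CPM in SCA3 mice (log2 fold change 0.12, FDR = 0.39). The medians were 42.9 and 42.5 CPM in cerebellum and 33.9 and 30.8 CPM in cortex. Of the motor genes Klc4 had the smallest p in the test of region dependence (edgeR FDR = 0.12). No motor gene passed that test, against 0.218% of all genes, and none did with the quasi-likelihood test, DESeq2 or limma-voom. Before adjustment, p was below 0.05 for 4 motor genes (8.89%, all genes 9.09%), namely Klc4, Kif26a, Dync1i1 and Kif13b. Kif19a came next (FDR = 0.60), after FDRs of 0.37, 0.52 and 0.55 for the other 3. Without wild-type mouse 9082857 Klc4 passed it (FDR = 0.035), as did 2.13% of all genes.

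The Klc4 promoter is shown because this is the only one of the 3 genes above with an entry among the RefSeq promoter windows. The 250 bases before the RefSeq start lie at chr17:46646081-46646330 (GRCm38.p6, minus strand, written 5′ to 3′ on that strand). Capitals mark matches to TGACG (the core of a cAMP response element, a site of CREB proteins) or to CACGTG (an E-box) on either strand.
Klc4: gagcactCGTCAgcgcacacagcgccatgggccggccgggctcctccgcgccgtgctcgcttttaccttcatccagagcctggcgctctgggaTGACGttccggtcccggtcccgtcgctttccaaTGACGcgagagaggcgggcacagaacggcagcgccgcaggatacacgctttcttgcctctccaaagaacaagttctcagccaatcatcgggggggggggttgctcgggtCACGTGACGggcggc
The window held TGACG 4 times and CACGTG 1 time, and the last TGACG overlapped the E-box. TGACG was present in 17.8% and CACGTG in 6.02% of all 32851 windows of this length. Counted by gene, with a match in any of its windows, TGACG was found for 13 (40.6%) and CACGTG for 2 (6.25%) of the 32 motor genes that had a window, against 19.8% and 6.86% of 27025 genes, expressed here or not.

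**Figure D2:**
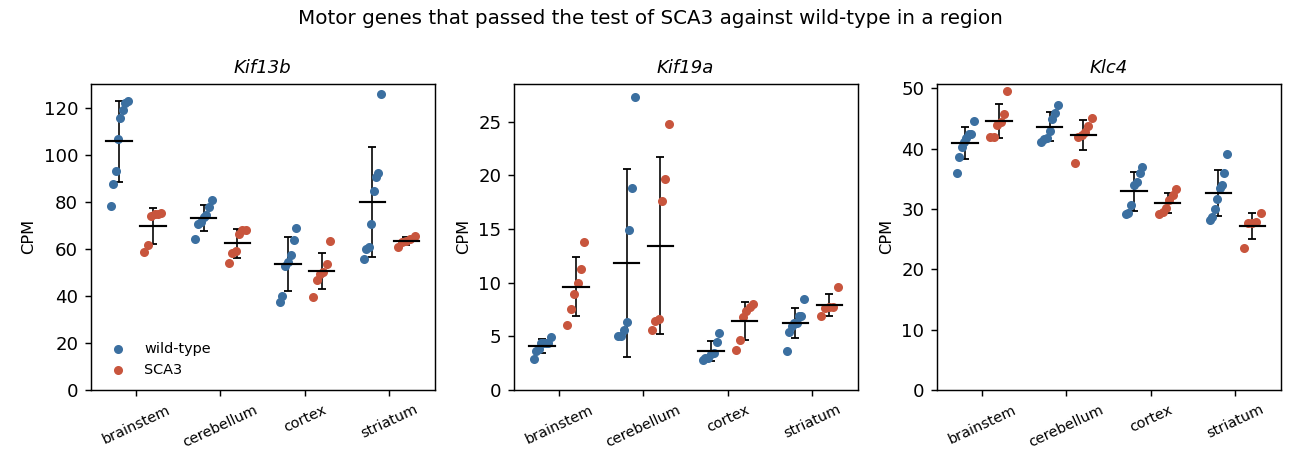
CPM of Kif13b, Kif19a and Klc4 (panels) in each library, by region (x axis) and genotype (blue wild-type, red SCA3); horizontal lines are means and bars ± 1 SD. Brainstem Kif13b and Kif19a do not overlap between genotypes, whereas striatal Klc4 overlaps between 28.2 and 29.3 CPM and cerebellar Kif19a splits into low and high libraries in both genotypes.

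Among the motor genes that did not pass, the brainstem genes next by p were Dync2h1 and Kif26a. Dync2h1, the heavy chain of the ciliary dynein 2, was at 60.5, 79.8 and 93.5 CPM in wild-type and at 51.9, 56.6 and 82.2 CPM in SCA3 brainstem (log2 fold change -0.40, SE 0.15, FDR = 0.16). It passed in 6 of 31 alternatives, namely without SCA3 mouse 7267056 (-0.51, FDR = 0.02) and in the fits on brainstem alone. There the FDR was 0.035 without a covariate and 0.0048 with RIN (-0.59). It was 0.021 with the thalamic score (-0.41), 0.00036 with the oligodendrocyte score (-0.59) and 0.0036 with the projection neuron score (-0.46). Kif26a, an atypical kinesin that binds microtubules without moving along them, was at 3.84, 5.81 and 12.4 CPM in wild-type and at 5.84, 8.99 and 15.6 CPM in SCA3 mice. Its log2 fold change was 0.52 (SE 0.20, FDR = 0.18), and 0.70 (FDR = 0.011) without wild-type mouse 9083375. For both genes the genotypes overlapped.

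In striatum Dync1i1 and Kif17 came closest to the threshold after Klc4. Dync1i1, an intermediate chain that joins dynein 1 to dynactin, was at 67.1, 98.5 and 124 CPM in wild-type and at 64.2, 72.8 and 96.0 CPM in SCA3 mice (log2 fold change -0.28, SE 0.10, FDR = 0.053). Kif17, a kinesin-2 known for carrying NMDA receptors in dendrites, was at 36.3, 64.9 and 101 CPM in wild-type and at 65.6, 101 and 115 CPM in SCA3 mice (log2 fold change 0.48, SE 0.17, FDR = 0.06). Neither separated the genotypes. In limma-voom with mice as random blocks Kif17 passed (0.52, FDR = 0.046), and with DESeq2 Dync1i1 passed (-0.28, FDR = 0.042). Without the libraries of mice 7267058 and 7267059 their log2 fold changes were -0.18 and 0.31 (FDR = 0.36 and 0.37). The 13 striatal projection neuron markers had a median log2 fold change of 0.47 and the 11 thalamic markers of -1.56 in striatum. With striatum fitted alone no motor gene passed (0.711% of all genes did), and the log2 fold changes were -0.28 for Dync1i1 and 0.48 for Kif17. With the thalamic score in that fit they were -0.08 and 0.15, and with the projection neuron score 0.00 and 0.09.

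The striatal count was sensitive to single mice. It was 6 (13.3%, all genes 14.8%) without wild-type mouse 9082857, namely Klc4, Dync1i1, Kif17, Kif1a, Kif21b and Kif22. It was 4 (8.89%, all genes 13.3%) without wild-type mouse 9083371, 3 (6.67%) without SCA3 mice 9082853 or 9083514 (all genes 10% and 7.66%), and 2 (4.44%, all genes 6.98%) without wild-type mouse 7267055. Without SCA3 mouse 9083515 it was 0 (all genes 2.40%). The share of motor genes was below that of all genes each time. Kif7, which shapes hedgehog signalling at the cilium tip, had striatal medians of 6.70 and 7.29 CPM (log2 fold change 0.26, FDR = 0.22, and 0.14 without the libraries of mice 7267058 and 7267059). It was at 8.22 and 9.44 CPM in brainstem (0.19, FDR = 0.51). In cortex its medians were 6.02 and 6.72 CPM (0.22, FDR = 1.0).

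In cerebellum the smallest p of a motor gene was that of Kif13b, followed on the lower side by Dync1h1, the dynein 1 heavy chain (log2 fold change -0.10, SE 0.08). On the higher side the cerebellar genes with the smallest p were Kif16b, a kinesin of early endosomes (0.09, SE 0.08), and the roadblock light chain Dynlrb1 (0.07, SE 0.06). In cortex the lowest p among genes with lower values were those of the chromokinesin Kif22 (-0.18, SE 0.12) and the dynactin subunit Dctn5 (-0.08, SE 0.06). All 45 genes lay between -0.23 and 0.18 in cerebellum.

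Kif5a, Kif5b, Kif5c, Kif1a, Dync1h1 and Dctn1, which serve long-range axonal transport, did not pass between genotypes in the fit of all libraries. Kif5a, the neuronal kinesin-1 heavy chain, differed between genotypes by 0.01 in brainstem, by -0.13 in cerebellum, by 0.07 in cortex and by -0.07 in striatum on the log2 scale (SE 0.13 each). Kif5b, its counterpart in all cells, was at -0.31 (SE 0.13, FDR = 0.27) in brainstem, where the medians were 853 and 726 CPM, and Kif5c was at -0.20 (SE 0.09, FDR = 0.29). Kif5c passed with the thalamic score in a fit on brainstem alone (-0.18, FDR = 0.017). Kif1a, which carries precursors of synaptic vesicles, was at -0.17 (SE 0.07, FDR = 0.13) in striatum and between -0.08 and 0.02 elsewhere, and it passed in striatum without mouse 9082857 (-0.21, FDR = 0.04). Dync1h1 lay between -0.10 and 0.00 in the 4 regions, and Dctn1, the dynactin subunit that binds microtubules, between -0.03 and 0.08.

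In wild-type mice, levels per exon length (RPKM, CPM per 1000 bases of exon) differed widely among the motor genes. Kif5a had the highest RPKM of the 45 genes in cortex (576 ± 94.6 SD, n = 7) and striatum (702 ± 154, n = 8), and Dynll2, a light chain shared by dynein 1 and other complexes, in brainstem (494 ± 38.9, n = 8) and cerebellum (314 ± 28.8, n = 7). Together with the light chain Klc1, Kif1a and Kif5c these were the 5 highest motor genes in each region. In brainstem the ranges of Dynll2 (437 to 567 RPKM) and Kif5a (386 to 478 RPKM) overlapped, as did those of Klc1 (195 to 255 RPKM) and Kif1a (204 to 232 RPKM). The lowest regional means were 0.491 RPKM for Kif27 and 0.695 RPKM for Kif26a, both in cerebellum, and 0.753 RPKM for Kif27 in brainstem.

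Regional differences were larger than those between genotypes. Each region was compared with the mean of the other 3 in wild-type mice, and a gene was called at an FDR below 0.05 and a difference of at least 2-fold. This gave 15 calls in 9 of the 45 motor genes (20%, all genes 18.8%). All 15 kept their sign in SCA3 mice, as did 99.8% of the calls over all genes, and 10 were again at least 2-fold there (66.7%, all genes 88.2%). The highest over the lowest regional mean was 1.57 for the median motor gene and 1.5 for the median of all genes. For 22 motor genes (48.9%) this ratio was under 1.5, against 50.1% of all genes.

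The lowest wild-type mean was in cerebellum for 28 of the 45 motor genes (62.2%), against 34.1% of all genes. With no fold minimum, 32 motor genes were lower (71.1%, all genes 38.4%) and 7 higher (15.6%, all genes 35.3%) in cerebellum (FDR below 0.05). In either direction, 39 motor genes differed in cerebellum (86.7%, all genes 73.7%), 33 in brainstem (73.3%, all genes 70.1%), 32 in cortex (71.1%, all genes 59.6%) and 18 in striatum (40.0%, all genes 55.0%). The median regional difference of the motor genes was -0.21 in cerebellum, 0.12 in brainstem, 0.10 in cortex and -0.03 in striatum, on the log2 scale, and between -0.02 and 0.00 over all genes. The highest mean was in brainstem for 19 motor genes, in cortex for 12, in striatum for 8 and in cerebellum for 6. The shares of all genes were not counted for the highest mean. The general neuron score in wild-type cerebellum, 8.55 to 8.80, was below that in brainstem (9.24 to 9.72) and cortex (8.97 to 9.34) and overlapped that in striatum (8.41 to 9.23). The mature oligodendrocyte score was 6.25 to 6.92 in cerebellum and 5.92 to 6.96 in cortex, against 7.82 to 8.71 in brainstem and 7.28 to 8.72 in striatum, and the part of either list in the cerebellar levels was not tested. At 2-fold, 5 motor genes were lower (11.1%, all genes 9.15%) and 3 higher in cerebellum (6.67%, all genes 4.95%).

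**Figure D3:**
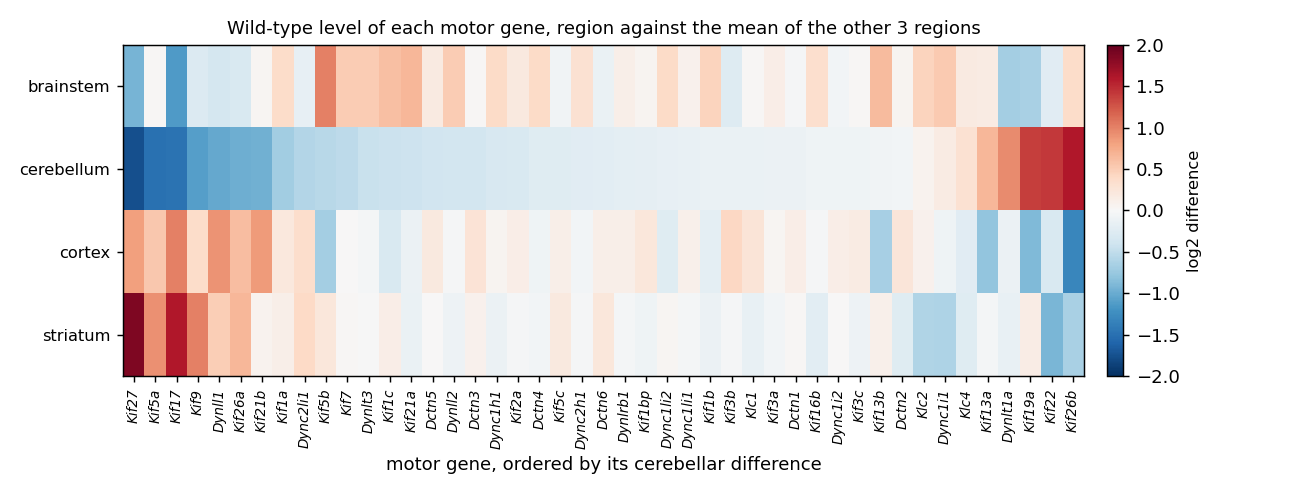
Log2 difference between each region (rows) and the mean of the other 3 regions in wild-type mice, for the 45 motor genes (columns, ordered by the cerebellar difference); blue is lower, red is higher. Most motor genes are pale blue in cerebellum, Kif27, Kif5a and Kif17 are the lowest there, and Kif26b, Kif22 and Kif19a are the highest.

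The kinesin-1 heavy chains differed in their order of regions. Kif5a was at 1130, 1430 and 1680 CPM (lowest, median, highest) in wild-type cerebellum, and at 2700, 3110 and 3340 CPM in brainstem. The values were 3230, 3990 and 4980 CPM in cortex and 3760, 4790 and 6550 CPM in striatum. Every cerebellar library was below every library of the other regions (log2 difference -1.49, SE 0.10, FDR = 4.7e-40). In SCA3 mice this difference was -1.63, and Kif5a was lowest in cerebellum in all 11 mice with 4 regions. Cortex overlapped both brainstem and striatum.

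Kif5b showed another order, with brainstem highest. It was at 576, 853 and 956 CPM there, at 413, 511 and 823 CPM in striatum, at 333, 349 and 417 CPM in cerebellum and at 304, 327 and 385 CPM in cortex. Cerebellum overlapped cortex and, narrowly, striatum, and striatum also overlapped brainstem. The brainstem difference of 1.01 (SE 0.10, FDR = 3.2e-23) stood at the 2-fold limit: it was 0.99 with the mouse as a block and fell under 1 without any of mice 7267058, 9082857, 9083371, 9083372 or 9083375. Kif5b and Kif17 made up the 2-fold brainstem calls, 1 higher (2.22%, all genes 3.34%) and 1 lower (2.22%, all genes 3.54%). Kif5c hardly varied, with its highest regional mean 1.25 times its lowest.

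The make-up of kinesin-1 heavy chains therefore differed by region. Scaled by exon length, Kif5a made up 73.1% ± 2.55 (SD, n = 8) of the Kif5 sum in wild-type striatum, 72.7% ± 1.83 (n = 7) in cortex, 61.3% ± 4.06 (n = 8) in brainstem and 50.8% ± 4.24 (n = 7) in cerebellum. Kif5c took 33.6% ± 3.84 in cerebellum and 17.4% to 20.0% elsewhere. Kif5b took 19.0% ± 3.26 in brainstem, 15.5% ± 1.08 in cerebellum, 9.57% ± 1.39 in striatum and 7.34% ± 1.35 in cortex.

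**Figure D4:**
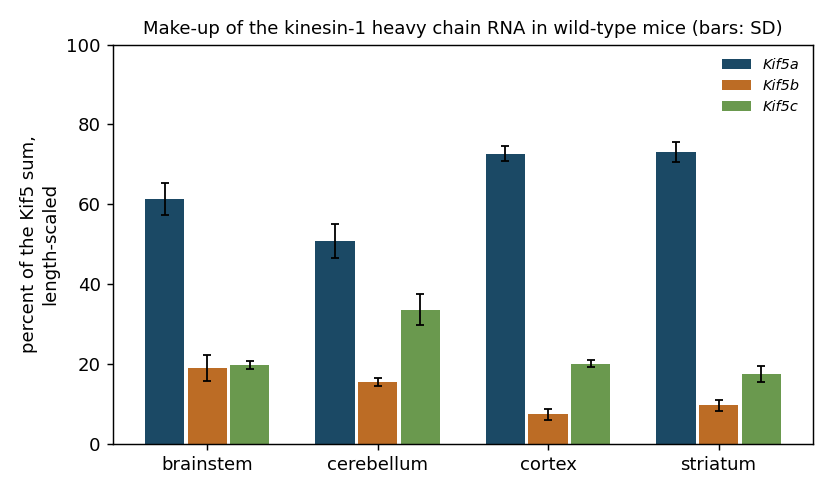
Share of Kif5a, Kif5b and Kif5c in their length-scaled sum (y axis, percent) in wild-type mice by region (x axis); bars are means and whiskers ± 1 SD over 7 or 8 mice. Kif5a has the highest share in every region, at 50.8% in cerebellum and 73.1% in striatum.

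Shares of paralogs were compared between genotypes within each region for 6 families (24 exact two-sided permutation tests, adjusted by Benjamini-Hochberg). None passed, and the smallest adjusted p was 0.46. In brainstem the Kif5a share was 61.3% ± 4.06 (n = 8) in wild-type and 65.5% ± 4.76 (n = 6) in SCA3 mice (exact p = 0.098). Dynll1 made up 9.14% ± 0.769 of Dynll1 and Dynll2 in wild-type and 8.40% ± 0.342 in SCA3 brainstem (exact p = 0.043), the smallest p of the 24. In striatum Dync1i1 made up 34.2% ± 5.38 (n = 8) of both dynein intermediate chains in wild-type and 28.8% ± 3.24 (n = 5) in SCA3 mice (exact p = 0.062). The shares of Kif21a, Klc1 and Dync1li1 in their families differed by at most 2.83 percentage points.

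The kinesin light chains differed in how far they varied. Klc1 was highest in cortex, with a median of 826 CPM (653 to 896 CPM), and lowest in striatum, with 651 CPM (523 to 789 CPM). Klc2 was highest in brainstem (269, 330 and 370 CPM) and lowest in striatum (163, 184 and 244 CPM), a striatal log2 difference of -0.60 (SE 0.09, FDR = 2.5e-09). It was lowest in striatum in all 11 mice with 4 regions. Klc4 was highest in cerebellum and lowest in striatum, by 1.34 times.

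Kif17, Kif27 and Kif9 shared an order of regions, with striatum highest, then cortex, brainstem and cerebellum. Kif27 and Kif9 are kinesins known from motile cilia and flagella. Kif17 was at 11, 13.1 and 18.3 CPM in wild-type cerebellum, 13.6, 15.5 and 19.2 CPM in brainstem, 34.0, 53.6 and 64.6 CPM in cortex and 36.3, 64.9 and 101 CPM in striatum. Cortex and striatum lay above all libraries of the other regions and overlapped each other. The striatal difference was 1.6 (SE 0.13, FDR = 7.1e-40), and 1.77 without the libraries of mice 7267058 and 7267059.

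The order of Kif17, Kif27 and Kif9 was also that of the median striatal projection neuron score. This score was 8.79 in wild-type striatum, 7.77 in cortex, 5.04 in brainstem and 4.03 in cerebellum. The part of that list in the levels of these genes was not tested. In cortex the Kif17 difference was 1.01 (SE 0.13, FDR = 5.8e-15). It fell below the 2-fold limit in 10 of 27 alternatives, to 0.98 with the mouse as a fixed block, 0.96 without the striatal libraries of mice 7267058 and 7267059, and under 1 without mouse 7267059, 9082857, 9083373 or 9083375. Kif17 was the higher cortical call (2.22%, all genes 4.36%) and Kif26b the lower (2.22%, all genes 2.09%). In brainstem Kif17 was lower by 1.14 and in cerebellum by 1.47 (log2 differences of -1.14 and -1.47).

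Kif27 was at 8.00, 14.2 and 19.1 CPM in wild-type striatum, at 6.4, 8.46 and 11 CPM in cortex, at 1.79, 3.69 and 4.63 CPM in brainstem and at 1.23, 2.15 and 3.32 CPM in cerebellum. This was the widest regional range of the motor genes, 6.63 times. The striatal difference was 1.87 (SE 0.14, FDR = 4.8e-42) and the cerebellar difference -1.76 (SE 0.16, FDR = 1.2e-23). Kif9 was at 8.49, 13 and 19.4 CPM in striatum and at 2.78, 4.93 and 6.04 CPM in cerebellum, without overlap, with differences of 1.01 (SE 0.11, FDR = 2.1e-21) and -1.10 (SE 0.12, FDR = 1.1e-18). The striatal value of Kif9 fell under 2-fold in 7 of 27 alternatives, among them those without mouse 7267055, 7267058, 9083373 or 9083375, and ran from 0.90 to 1.06 over all of them.

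These 3 genes were the striatal calls (6.67%, all genes 3.83%), with none lower (all genes 1.73%). The 40 genes of axonemal dynein and cilium in the table had median scores of 4.67 in wild-type striatum, 4.47 in cortex, 4.36 in cerebellum and 4.28 in brainstem. The 4 ependymal and multiciliated markers had 3.48, 2.89, 2.41 and 2.56 in the same order, and their part in the levels of Kif27 and Kif9 was not tested. Kif27 shares 332 exon bases with an antisense gene, and reads in that stretch cannot be told apart.

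The RefSeq windows of Kif17 and Kif9 are shown because the 2 genes followed the same order of regions. They lie at chr4:138262001-138262250 (plus strand) and chr9:110476708-110476957 (plus strand) on GRCm38.p6. The Kif17 start lies 11816 bases inside the first annotated start of the gene. Capitals mark TGACG or GTTGCC, the core of the X-box known from cilium genes, on either strand.
Kif17: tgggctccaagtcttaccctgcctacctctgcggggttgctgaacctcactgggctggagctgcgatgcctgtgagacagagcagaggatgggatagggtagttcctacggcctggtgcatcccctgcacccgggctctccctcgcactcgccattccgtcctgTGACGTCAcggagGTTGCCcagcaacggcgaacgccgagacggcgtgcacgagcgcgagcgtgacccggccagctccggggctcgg
Kif9: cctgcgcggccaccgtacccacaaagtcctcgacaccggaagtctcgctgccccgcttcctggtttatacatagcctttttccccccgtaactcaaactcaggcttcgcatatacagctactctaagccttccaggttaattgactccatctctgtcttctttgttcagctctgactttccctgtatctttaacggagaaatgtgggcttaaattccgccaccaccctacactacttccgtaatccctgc
The Kif17 window held GTTGCC 1 time and TGACG 2 times, on opposite strands and overlapping. The Kif9 window held neither, and a second window of Kif9, for a later start, held GTTGCC 1 time. GTTGCC was present in 10.4% of all 32851 windows. By gene it was found for 8 of the 32 motor genes with a window, Kif9 through its second window, and for 11.8% of all 27025 genes.

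Kif26b, Kif22 and Kif19a were the motor genes called higher in cerebellum. Kif26b, an atypical kinesin like Kif26a, was at 41.6, 52.8 and 72.6 CPM in wild-type cerebellum and at 24.8, 27.8 and 35.9 CPM in brainstem. It was lower in striatum (13.5, 16.1 and 23.8 CPM) and cortex (6.42, 10.8 and 16.6 CPM). All cerebellar libraries were above all others. The cerebellar difference was 1.6 (SE 0.14, FDR = 6.4e-36) and the cortical -1.31 (SE 0.14, FDR = 2.9e-17). Kif26b shares 909 exon bases with an antisense gene.

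Kif22, a chromokinesin that moves chromosomes in dividing cells, was at 15.3, 18.6 and 22.4 CPM in wild-type cerebellum. In the other regions its values ran from 4.41 to 9.13 CPM, with striatum lowest (median 5.52 CPM). The cerebellar difference was 1.42 (SE 0.09, FDR = 1.7e-66), and all 11 mice with 4 regions had their highest value in cerebellum. For Kif19a the cerebellar difference of 1.39 (SE 0.24, FDR = 1.8e-09) came from means over the low and high libraries described above. Cerebellum was its highest region in 5 of the 11 mice.

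**Figure D5:**
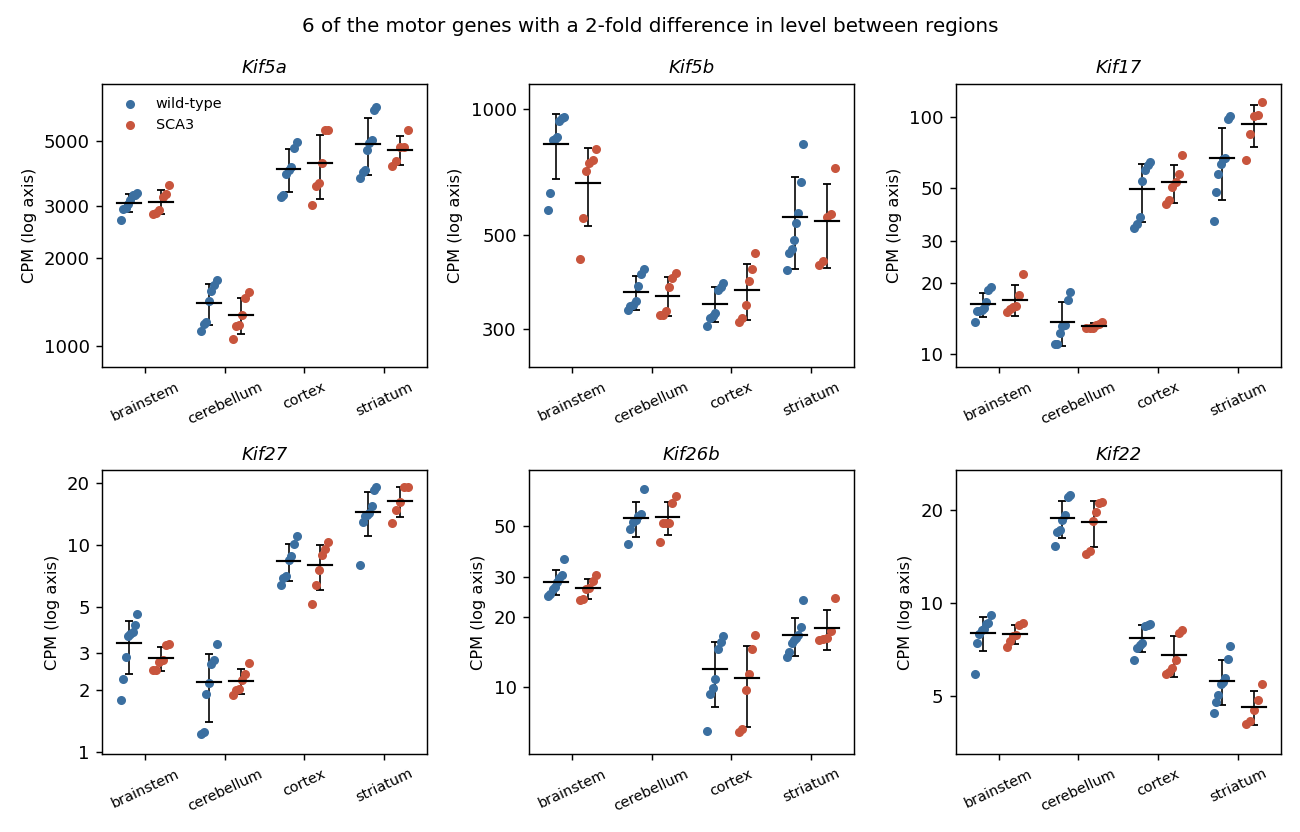
CPM (log axis) of 6 motor genes in each library by region (x axis) and genotype (blue wild-type, red SCA3); lines are means and bars ± 1 SD. Kif5a is lowest in cerebellum and Kif5b highest in brainstem, Kif17 and Kif27 are high in striatum and cortex, and Kif26b and Kif22 are high in cerebellum, in both genotypes.

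Other kinesins differed less than 2-fold from the mean of the other regions. Kif1a was lower in cerebellum (median 1020 CPM) than elsewhere (1580 to 1850 CPM), by -0.69 (SE 0.06), in all 11 mice with 4 regions. Kif1b, which moves mitochondria and vesicles, was highest in brainstem with 1830 CPM and at 1230 to 1270 CPM in the other regions. Kif21b, a kinesin-4 of dendrites, was highest in cortex (206 CPM) and lowest in cerebellum (78.0 CPM), whereas its paralog Kif21a was highest in brainstem (456 CPM). Kif13a was highest in cerebellum (103 CPM) and lowest in cortex (51.9 CPM). Kif3a and Kif3c, of the heterotrimeric kinesin-2, differed by 1.15 times between regions at most and Kif3b by 1.42 times, with cortex highest. Kif2a, which shortens microtubules, differed by 1.29 times.

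Of the 5 dynein 1 subunits, Dync1h1, Dync1i2 and Dync1li1 had their lowest mean in cerebellum, Dync1i1 in striatum and Dync1li2 in cortex. Dync1h1 was at 642, 753 and 959 CPM in cerebellum and at 1030, 1090 and 1310 CPM in brainstem, where it was highest (1.43 times). Dync1i1 was highest in brainstem (171 CPM) and lowest in striatum (98.5 CPM), a striatal log2 difference of -0.61 (SE 0.07, FDR = 4.4e-16), whereas Dync1i2 differed by only 1.12 times. Dync1li1 differed by 1.14 times and Dync1li2 by 1.39 times between regions.

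Among the dynein light chains, Dynll1 was at 55.5, 74.1 and 84.7 CPM in cerebellum, 90.4, 102 and 108 CPM in brainstem, 115, 156 and 183 CPM in striatum and 168, 195 and 218 CPM in cortex. Cerebellum and brainstem were each apart from all other regions, and striatum overlapped cortex. The cerebellar difference was -1.03 (SE 0.08, FDR = 9.4e-34), and -0.97 without mouse 9083375. Dynll2 was instead highest in brainstem, by 1.57 times over cerebellum, and Dynlrb1 differed by 1.18 times. Dynlt1a was highest in cerebellum (median 11.9 CPM) and lowest in brainstem (4.68 CPM), but it has near-identical copies and its values are uncertain.

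The dynactin subunits varied between regions by at most 1.40 times. The highest over the lowest regional mean was 1.14 for Dctn1, 1.28 for Dctn2, 1.40 for Dctn3, 1.39 for Dctn4, 1.35 for Dctn5 and 1.26 for Dctn6. Dctn4 was highest in brainstem and Dctn6 highest in striatum in all 11 mice with 4 regions. Between genotypes the 6 subunits lay between -0.12 and 0.11 in the 4 regions.

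Related genes outside the symbol rule were counted in 5 lists. Of 9 other dynactin and kinesin subunits in the table, 1 passed in striatum, Kifc3, a minus-end kinesin, at 61.5 CPM in wild-type and 50.5 CPM in SCA3 mice (log2 fold change -0.28, SE 0.07, FDR = 0.0078), a share of 11.1%. Of 23 dynein regulators and activating adaptors, Hook3 fell in brainstem (-0.36, FDR = 0.024), and Nin (0.35, FDR = 0.046) and Ccdc88c (0.53, FDR = 0.039) rose in striatum (8.70%). Of 41 kinesin cargo adaptors and regulators, Ranbp2 fell in brainstem (-0.30, FDR = 0.04), and Clstn3 (-0.30, FDR = 0.017) and Grip2 (-0.65, FDR = 0.01) fell in striatum (4.88%). These shares stood beside 7.54% of all genes. In brainstem 2 of the 157 genes of the 5 lists passed (1.27%, all genes 1.92%), and 0 did without the 3 brainstem libraries high in thalamic markers (all genes 0.736%). None of these lists had a gene that passed in cerebellum or cortex.

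Genes of the microtubule tracks were counted in the same way. Of 44 microtubule-associated proteins and tubulins in the table, 5 fell in striatum (11.4%, all genes 7.54%) and none rose: the tubulins Tuba1b (-0.59, FDR = 0.002), Tubb2a (-0.64, FDR = 0.01) and Tubb4b (-0.46, FDR = 0.0072), and the stathmins Stmn2 (-0.60, FDR = 0.015) and Stmn3 (-0.47, FDR = 0.0021), which bind free tubulin. The list's median log2 fold change was -0.14 in striatum, where 33 of 44 genes were below 0 (51.0% of all genes), and between -0.02 and 0.00 elsewhere. Of the markers of neurons in general, 8 of 12 were below 0 in striatum (median -0.19). Nefh (-1.36, FDR = 0.014), Syp (-0.43, FDR = 0.0096) and Stmn2 fell. Tubb3, Map2 and Stmn2 are on both lists, so the lists are not independent. Without the striatal libraries of mice 7267058 and 7267059 the median of the 44 genes was -0.08, with 30 below 0 (49.6% of all genes), and Tuba1b alone of the list passed (-0.46, FDR = 0.042). The median of the neuron markers was then -0.04, and none of them passed. Of 40 axonemal dynein and cilium genes 1 passed, Wdr60, a dynein 2 intermediate chain, in striatum (0.20, FDR = 0.028; 2.50%, all genes 7.54%). Over the 5 lists, 11 of 157 genes passed in striatum (7.01%, all genes 7.54%), and 3 did without the striatal libraries of mice 7267058 and 7267059 (1.91%, all genes 2.34%). With striatum fitted alone 0 passed (all genes 0.711%), and 1 did with the thalamic score in that fit (0.637%, all genes 0.679%). The shares with all libraries and without those 2 were near those of all genes.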

How the data were processed

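Read counts per RefSeq gene for 53 libraries were used as deposited, after the authors' filter for an average above 4 CPM. Per the labels and the study's methods, the authors made poly-A selected, unstranded, paired libraries, and used bcl2fastq 1.8, FastQC 0.11.2, cutadapt 1.10, STAR 2.3.0e (GRCm38, uniquely aligned reads), HTSeq 0.6.1 and edgeR 3.14.0. Unstranded counts cannot separate overlapping genes on opposite strands: Kif3c, for example, shares 2617 exon bases with such a gene.

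The counts were scaled by TMM and fitted over 8 groups of region and genotype with edgeR 4.0.16 (R 4.3.3, likelihood ratio test, Benjamini-Hochberg over 12372 genes, threshold 0.05). The fits were tried on simulated counts, drawn independently for each library. That checks the calculation and not the calls made here. Exon lengths came from GENCODE M21 and promoters from RefSeq, which had a window for 32 of the 45 motor genes. Alternatives used DESeq2 1.42.0 and limma 3.58.1.

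Each mouse gave several regions, so libraries of a mouse are paired between regions. Mean correlations of same-mouse deviations were 0.0904 to 0.186 between regions, and the correlation in the blocked fit was 0.14.

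Motor genes were named if called between genotypes, if among the 2 higher and 2 lower with the smallest p in a region, if among the largest 2-fold regional differences, the 5 highest per length or the 5 smallest p for region dependence, or if on a list of 23 axonal transport genes. Other motor genes with values (Kif13a, Dynlt1a, Kif26a levels and dynactin subunits) were added as members of their families. The genes and lists were chosen with earlier results of these data known.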

Additional observations from a re-analysis of the deposited data

Results flagged for a closer look

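In 64 groups of one region and genotype, over 8 motor genes, a library lay far from the others of its group in 2, both for Kif26b in striatum. Wild-type mouse 9083372 had 23.8 CPM, against 13.5 to 18.1 CPM in the other 7 wild-type mice. SCA3 mouse 7267056 had 24.2 CPM, against 15.9 to 17.4 CPM in the other 4 SCA3 mice. Dixon's 95% limit, used here, is passed by about 1 in 20 groups by chance.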

How the results depend on the processing

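Kif13b kept its call in brainstem in 30 of 31 alternatives, Kif19a in 28 and Klc4 in striatum in 23, and no direction reversed. In brainstem 2 motor genes passed (all genes 1.92%), and 1 did with the mouse as a replicate block (all genes 2.05%). In fits on that region alone, 3 passed without a covariate (3.17%), with the projection neuron score (4.45%) or with RIN (1.75%). The thalamic score in such a fit gave 5 (6.22%) and the oligodendrocyte score 4 (12.1%). Without the 3 libraries high in thalamic markers 0 passed (0.736%), and 1 to 3 did without single mice (0.97% to 2.50%). In cortex, where 0 passed (all genes 0.154%), 1 did with the region alone (0.283%) and with the thalamic (0.558%), oligodendrocyte (0.752%) or projection neuron score (0.331%). With RIN in the fit on cortex alone 0 passed (0.137%). In striatum, where 1 passed (all genes 7.54%), the count was 2 with DESeq2 (9.39%), the replicate block (5.76%) or RIN as a covariate (8.16%), and 3 with the series of mouse numbers as covariate (9.25%). It was 0 with RIN of at least 7 (1.12%), with the region alone (0.711%), with the thalamic (0.679%), oligodendrocyte (3.41%) or projection neuron score (0.259%) or RIN (0.776%) in that fit, and without the libraries of mice 7267058 and 7267059 (2.34%). It was 0 to 6 without single mice (2.40% to 14.8%). Region dependence gave 0 to 1 without single mice (0.0242% to 2.13%). Of the regional 2-fold calls, the 2 in brainstem became 1 with both replicate blocks, RIN as a covariate and RIN of at least 7, and 1 to 3 without single mice. The 2 in cortex became 1 in the same fits, with the series covariate and without those 2 libraries, and 1 to 3 without single mice. The 8 in cerebellum became 7 to 10 and the 3 in striatum 2 to 3 over all alternatives at 2-fold, and the 2 in brainstem became 3 without the 2 libraries high in cerebellar markers. Of all genes, 6.48% to 7.65% were called in brainstem, 13.5% to 14.6% in cerebellum, 5.74% to 6.99% in cortex and 5.29% to 6.98% in striatum over the same alternatives. The 3 of the combined test became 2 to 4 without single mice (all genes 2.25% to 8.48%). With no fold minimum the counts were 33 in brainstem, 39 in cerebellum, 32 in cortex and 18 in striatum, and with the replicate blocks 34, 39, 30 to 32 and 20 to 22 in the same order. Of the genotype and 2-fold calls, the blocks changed no other than these and those given above. The fits without sets of 2 or 3 libraries and those with the projection neuron score or RIN in 1 region were chosen after seeing the data. Depth and the 5 to 8 libraries a group limit what could be detected, and 7 motor genes had a mean under 10 CPM.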
